A study of Mus musculus with 20 samples.

Results

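Mitosis genes, the genes whose products condense chromosomes, build the spindle and split the cell, were followed in RAW264.7, an immortal mouse line of macrophage character whose cells become osteoclasts under the cytokine RANKL. The set held 43 genes of 50686 in the deposited tables, chosen by name as textbook components of mitosis and matched by gene symbol, and all 43 were found and passed the filter on low counts. Messenger RNA was sequenced in 10 groups of 2 libraries each. Cells received RANKL at 50 ng per ml together with the BET bromodomain inhibitor I-BET at 500 nM, RANKL alone, or I-BET alone, each for 4, 14 or 24 hours, and untreated cells stood for hour 0. All groups share 1 immortal, dividing line, so the levels below are those of a growing culture and not of primary bone marrow precursors.

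At mitotic entry the kinase CDK1, bound to cyclin A or cyclin B and freed by CDC25 phosphatases, drives chromosome condensation and spindle assembly. The spindle checkpoint then holds the anaphase promoting complex until every kinetochore is attached, after which CDC20 brings that complex to cyclin B and securin, separase cuts cohesin, and the central spindle directs cleavage. Most of these genes are transcribed in a wave late in the cell cycle, under the MuvB core complex with B-MYB and FOXM1, and MuvB is known to bind the cell cycle genes homology region (CHR), often beside CCAAT boxes bound by NF-Y. I-BET compounds keep BET proteins from binding acetylated histones.

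The promoters of 6 members are printed here because most of the members' windows searched held the CHR or CCAAT letters, which the rule that chose them did not use. Cdc20, Ube2c, Ccnb2, Cdk1 and Ccnb1 are members that fell when I-BET was added to RANKL, whereas Bub1 did not pass that test. Each run takes in 250 bases before and 50 after the annotated start, read 5′ to 3′ on the gene's strand from the RefSeq promoter table of build GRCm38.p6. Capitals mark TTTGAA, its variant TTCGAA and CCAAT on either strand, so TTCAAA and ATTGG are their reverse forms. TTCGAA reads the same on both strands, and matches may share bases.
Cdc20 (chr4:118437294-118437593, minus strand): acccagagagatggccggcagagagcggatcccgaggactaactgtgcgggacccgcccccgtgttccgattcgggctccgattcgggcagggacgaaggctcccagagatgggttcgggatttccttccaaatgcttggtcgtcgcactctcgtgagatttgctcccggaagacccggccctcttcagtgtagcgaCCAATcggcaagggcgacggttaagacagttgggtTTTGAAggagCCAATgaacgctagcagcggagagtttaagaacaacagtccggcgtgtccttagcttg
Ube2c (chr2:164769679-164769978, plus strand): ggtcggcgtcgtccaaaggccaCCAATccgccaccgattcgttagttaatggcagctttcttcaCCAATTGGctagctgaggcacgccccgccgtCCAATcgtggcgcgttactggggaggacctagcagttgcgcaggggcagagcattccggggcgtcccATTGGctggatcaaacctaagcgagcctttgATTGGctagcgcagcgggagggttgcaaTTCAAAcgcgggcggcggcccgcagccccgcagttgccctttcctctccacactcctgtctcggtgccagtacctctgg
Ccnb2 (chr9:70421505-70421804, minus strand): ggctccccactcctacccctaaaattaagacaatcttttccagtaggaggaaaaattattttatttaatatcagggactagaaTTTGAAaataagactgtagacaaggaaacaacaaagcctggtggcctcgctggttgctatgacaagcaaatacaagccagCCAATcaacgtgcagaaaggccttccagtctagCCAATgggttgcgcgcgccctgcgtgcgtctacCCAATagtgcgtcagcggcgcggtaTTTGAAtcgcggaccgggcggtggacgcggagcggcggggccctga
Cdk1 (chr10:69352863-69353162, minus strand): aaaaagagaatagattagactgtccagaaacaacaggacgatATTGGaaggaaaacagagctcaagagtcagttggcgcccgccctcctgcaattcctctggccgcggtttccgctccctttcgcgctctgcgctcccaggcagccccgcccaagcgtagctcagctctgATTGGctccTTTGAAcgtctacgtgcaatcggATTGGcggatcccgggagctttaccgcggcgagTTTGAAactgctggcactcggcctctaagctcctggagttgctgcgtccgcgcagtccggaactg
Ccnb1 (chr13:100786437-100786736, minus strand): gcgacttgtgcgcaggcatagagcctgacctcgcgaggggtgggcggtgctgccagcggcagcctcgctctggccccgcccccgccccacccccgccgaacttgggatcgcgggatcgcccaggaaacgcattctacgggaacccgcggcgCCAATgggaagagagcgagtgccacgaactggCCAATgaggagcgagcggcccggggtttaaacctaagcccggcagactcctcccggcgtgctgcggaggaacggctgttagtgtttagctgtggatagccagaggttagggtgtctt
Bub1 (chr2:127831810-127832109, minus strand): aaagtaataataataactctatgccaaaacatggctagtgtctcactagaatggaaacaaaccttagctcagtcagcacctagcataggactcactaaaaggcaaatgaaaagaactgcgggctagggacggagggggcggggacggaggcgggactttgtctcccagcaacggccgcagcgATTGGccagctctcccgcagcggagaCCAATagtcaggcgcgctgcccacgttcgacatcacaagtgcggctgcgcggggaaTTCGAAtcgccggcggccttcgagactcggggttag
In Cdc20 the TTTGAA began at base -18 from the start site, between CCAAT boxes at -53 and -8. The Ube2c window held TTTGAA at -29 on the other strand and 6 CCAAT matches. The Ccnb2 window had TTTGAA at 5 and at -167 with 3 CCAAT boxes, at -87, -54 and -21. The Cdk1 window also had 2 TTTGAA, at -71 and -15, and 3 CCAAT boxes on the other strand. No TTTGAA or TTCGAA lies in the Ccnb1 window, which held 2 CCAAT boxes. The Bub1 window had TTCGAA at 15 and also 2 CCAAT boxes, at -42 and, on the other strand, at -68.

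Over the set, 36 of the 43 members matched 38 windows in that table. Incenp, Tpx2, Foxm1, Kif20a, Ccna2, Aurkb and Cdc25c had no entry. Of the 38 windows 30 (78.9%) held TTTGAA or TTCGAA, as did 19.2% of all 32851 promoter windows. CCAAT was in 78.9% of the member windows and in 37.4% of all windows. Both together were in 71.1% of the member windows and 7.52% of all, and 52.6% of the member windows had 2 or more CCAAT matches, against 11.7% of all. The 7 windows of members called lower with RANKL plus I-BET than with RANKL at 14 hours held a CHR form in 6 and CCAAT in 7. In the 31 windows of the other members, 77.4% held a CHR form and 74.2% CCAAT. These are letter matches, and binding was not measured.

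Counts per library summed to between 19051780 and 62313792, and the fewest counts of any member in any library were 541, so counting error is small beside the spread between libraries. Untreated library 1 was the shallowest. Untreated library 2 stood apart in the summed level of 5 genes, Rn7sk, Rpph1, Rmrp, Lars2 and Gm26870, with 1.76% of its counts against 0.0237% to 0.165% in the other 19 libraries, and it enters every comparison with untreated cells. The labels do not say whether the 2 libraries of a group came from separate cultures, so a p-value reflects only how these samples spread, which may be technical. Libraries of the same number deviated together in every pair of groups, so each count of calls is also given with the library number as a block where that moves it by more than 1.5 times. Of the macrophage markers 9 were measured, none of them at 0, among them Csf1r at 412 RPKM and Cd68 at 372 RPKM in untreated cells. Marker lists of T, B, epithelial, endothelial, erythroid and stromal cells each summed to at most 0.84 CPM (counts scaled to library size) in any library, with Cd8a, Hbb-bs and Col3a1 at 0 in all groups.

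In untreated cells all 43 genes were well expressed. On the RPKM scale they ran from 13.9 (Ttk) to 126 (Mki67) with a median of 29.7 (n = 2). That scale divides by 1 fixed length per gene. How that length was taken is not given, so the order of different genes is uncertain. Mki67, whose protein coats mitotic chromosomes and marks dividing cells, had 126 ± 34.9 RPKM, and Top2a, the topoisomerase that untangles sister chromatids, had 102 ± 20.6 RPKM (SD, n = 2 each). The B cyclin Ccnb2 followed with 88.2 ± 6.04 RPKM, and then came Incenp with 74.9 ± 8.54 RPKM and Bub1b with 71.9 ± 0.756 RPKM. These top levels overlapped in part: Mki67 and Top2a did not differ beyond their spread, and neither did Top2a and Ccnb2 or Incenp and Bub1b. The checkpoint kinase Ttk, the phosphatase Cdc25c with 14.2 ± 0.64 RPKM and the chromosome motor Kif4 with 16.02 ± 2.46 RPKM were at the low end and likewise lay within their spread of each other. Cdk1 itself had 34.5 ± 1.47 RPKM and Foxm1, the transcription factor of late cell cycle genes, 26.9 ± 5.07 RPKM. For 6 members, Cenpe, Cenpf, Kif23, Kif4, Mki67 and Top2a, library 1 exceeded library 2 in all 10 groups, and for Cdc20, Cenpa and Pttg1 library 2 exceeded library 1 in all 10.

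Across the 10 groups the members moved within a narrow band. The group with the highest mean of CPM, here scaled by TMM factors, exceeded the lowest by 1.27 (Cdc25c) to 2.13 times, with a median of 1.56 times, and the widest ranges were those of Cdc20 and Ube2c at 2.13, Kif20a at 2.08, Aurka at 2.0, Ccnb1 at 1.95 and Cdc25b at 1.94 times. RANKL alone at 14 hours was the highest group for 26 of the 43 members and RANKL plus I-BET at 14 hours for 10. The lowest group was RANKL plus I-BET at 4 hours for 19 members and I-BET alone at 24 hours for another 19. The summed CPM of all 43 were 9423 and 8423 in the untreated libraries, 7459 and 6193 at 4 hours, 9460.0 and 8711 at 14 hours and 7638 and 7713 at 24 hours of RANKL plus I-BET. With RANKL alone they were 7987 and 7191, 10510.0 and 9407 and 8909 and 8242 at 4, 14 and 24 hours, and with I-BET alone 8068 and 6915, 8232 and 7542 and 7008 and 6829. A lower level in bulk RNA can come from fewer cells in mitosis or from less RNA in each, and these cannot be told apart here.

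**Figure D1:**
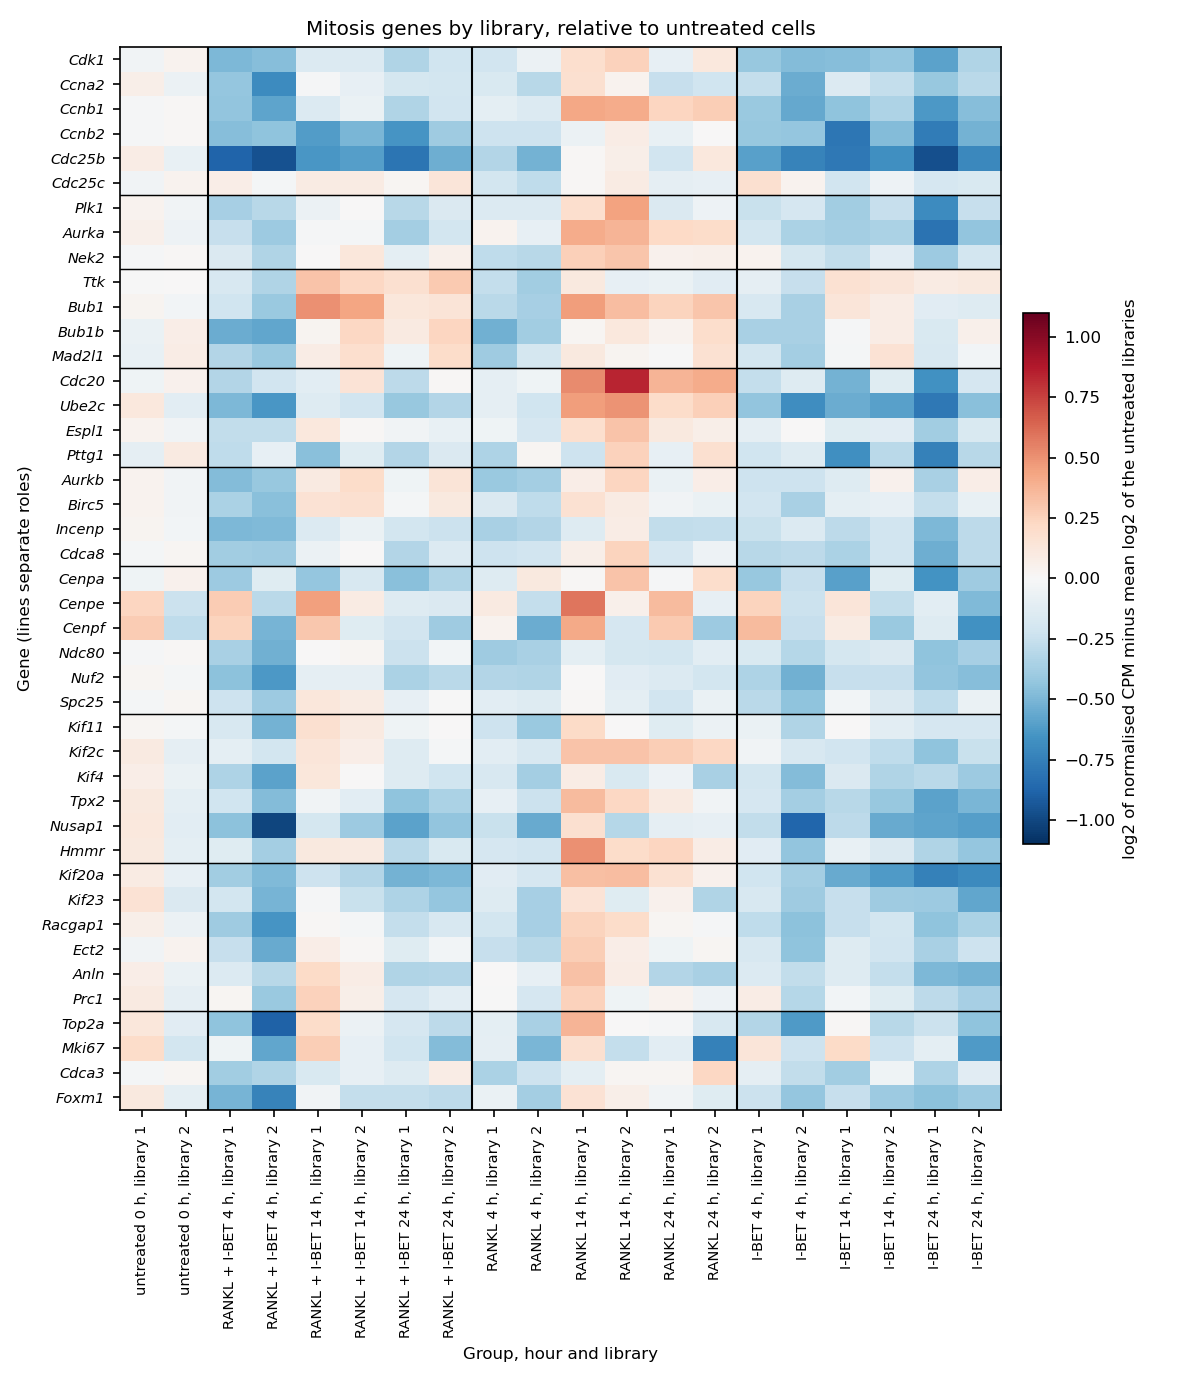
Level of each of the 43 mitosis genes (rows, in blocks by role) in each of the 20 libraries (columns), as log2 of the CPM minus the mean log2 of the 2 untreated libraries, red above and blue below them. RANKL at 14 hours has the reddest columns, and RANKL plus I-BET at 4 hours and I-BET at 24 hours the bluest.

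RANKL alone was first compared with untreated cells. At 4 hours all 43 members had a fitted level below untreated cells, but only Bub1b and Ndc80 passed the test. At 14 hours 7 members had risen, where 8.31% of the tested genes were called higher. They were led by the anaphase activator Cdc20 and the ubiquitin-conjugating enzyme Ube2c, both of which serve the anaphase promoting complex. At 24 hours the set was back near untreated levels, with only Bub1 higher and Anln lower. Untreated cells were sampled only at hour 0, so hours in culture and treatment cannot be told apart in any comparison with them, and all 9 such comparisons share the same 2 untreated libraries. A call means an adjusted p under 0.05 by edgeR's quasi-likelihood test over 16042 genes, and 8 core members, Cdk1, Ccnb1, Plk1, Aurkb, Bub1, Top2a, Foxm1 and Mki67, are followed in every comparison.

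At 4 hours Bub1b, a kinase-like core subunit of the mitotic checkpoint complex, had 223 and 246 CPM in the RANKL libraries, against 305 and 339 CPM in the untreated libraries. The RANKL libraries were both below, and Bub1b fell (log2 fold change -0.46, SE 0.1, adjusted p = 0.0237). Ndc80, the microtubule-binding subunit of the outer kinetochore, had 68.1 and 70.1 CPM with RANKL and 88.8 and 90.2 CPM in untreated cells and also fell (log2 fold change -0.37, SE 0.091, adjusted p = 0.035). These were 2 of 43 members, where 2.08% of the tested genes were called higher and 1.83% lower, and 0 members were higher by edgeR, 0 at an unadjusted p under 0.05 and 0 by DESeq2. All 43 log2 fold changes were negative, with a median of -0.23 against 0.01 over all tested genes. In 30 members both RANKL libraries lay below both untreated libraries, a count that was not made over all tested genes. None of the 8 core members passed. Their log2 fold changes were -0.14, -0.13, -0.15, -0.39, -0.33, -0.23, -0.22 and -0.30 for Cdk1, Ccnb1, Plk1, Aurkb, Bub1, Top2a, Foxm1 and Mki67, with SE of 0.087 to 0.28 and adjusted p of 0.0515 to 0.774. With the block 0 were called higher and 20 lower, against 6.72% and 7.77% of the tested genes. Bub1b was called in none of the 4 fits without 1 library, with adjusted p of 0.0511 to 0.272. Ndc80 was called in none of the 4 fits without 1 library, with adjusted p of 0.131 to 0.256.

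At 14 hours Cdc20, which carries substrates to the anaphase promoting complex, had 189 and 236 CPM with RANKL and 128 and 136 CPM in untreated cells (log2 fold change 0.68, SE 0.17, adjusted p = 0.0125). Ube2c, the complex's ubiquitin-conjugating enzyme, had 215 and 219.7 CPM against 169 and 144 CPM (log2 fold change 0.48, SE 0.12, adjusted p = 0.0132). Cyclin B1, Ccnb1, which activates CDK1, had 319 and 315 CPM with RANKL, against 235 and 240.3 CPM in untreated cells (log2 fold change 0.41, SE 0.087, adjusted p = 0.00408). The groups did not overlap for any of the 3 genes. Bub1, the kinase that recruits checkpoint proteins to kinetochores, rose (log2 fold change 0.40, SE 0.087, adjusted p = 0.00554), and so did Aurora A, Aurka, which matures centrosomes (log2 fold change 0.39, SE 0.11, adjusted p = 0.0284). The central spindle motor Kif20a (log2 fold change 0.33, SE 0.087, adjusted p = 0.0155) and the microtubule depolymerase Kif2c (log2 fold change 0.31, SE 0.094, adjusted p = 0.0338) completed the 7, where 8.31% of the tested genes were called higher and 10.1% lower. By contrast, 0 members were lower by edgeR, 0 at an unadjusted p under 0.05 and 0 by DESeq2.

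With the block at 14 hours 16 were called higher and 0 lower, against 19.1% and 17.2% of the tested genes. Cdk1, Plk1, Aurkb, Top2a, Foxm1 and Mki67 did not pass. They had log2 fold changes of 0.22, 0.32, 0.16, 0.19, 0.11 and -0.04 in that order, with SE of 0.098 to 0.28 and adjusted p of 0.103 to 0.958. The median over the 43 was 0.13 against 0.03 over all tested genes. Calls numbered 2 and 3 without RANKL libraries 1 and 2, and 5 and 1 without untreated libraries 1 and 2. Of the 7 only Ccnb1 stayed called in all 4 of these fits. For Cdc20 the adjusted p was 0.126 without RANKL library 2, 0.0902 without untreated library 1 and 0.0609 without untreated library 2. Ube2c had an adjusted p of 0.0587 without RANKL library 1, 0.0739 without RANKL library 2 and 0.172 without untreated library 2. For Bub1 the adjusted p was 0.0742 without RANKL library 1 and 0.0747 without untreated library 2. Aurka was called in none of the 4 fits without 1 library, with adjusted p of 0.072 to 0.207. Kif20a had an adjusted p of 0.0762 without RANKL library 1, 0.0736 without RANKL library 2 and 0.195 without untreated library 2. For Kif2c the adjusted p was 0.134 without RANKL library 1, 0.13 without RANKL library 2 and 0.321 without untreated library 2.

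At 24 hours of RANKL Bub1 had 261 and 272 CPM, against 225 and 215 CPM in untreated cells, and rose (log2 fold change 0.28, SE 0.087, adjusted p = 0.0399). Anillin, Anln, the scaffold of the contractile ring, had 223 and 218 CPM with RANKL and 294 and 266 CPM in untreated cells, and fell (log2 fold change -0.34, SE 0.099, adjusted p = 0.0252). Neither pair of groups overlapped. These were the only called members, where 8.04% of the tested genes were called higher and 10.9% lower, and the median over the 43 was -0.02. Cdk1, Ccnb1, Plk1, Aurkb, Top2a, Foxm1 and Mki67 did not pass. The log2 fold changes were 0.02, 0.26, -0.11, 0.00, -0.10, -0.09 and -0.41 in that order, with SE of 0.087 to 0.28 and adjusted p of 0.0554 to 0.997. With the block 4 were called higher and 6 lower, against 18.7% and 18.1% of the tested genes. Bub1 was called in none of the 4 fits without 1 library, with adjusted p of 0.0966 to 0.263. Anln had an adjusted p of 0.088 without RANKL library 1, 0.0966 without RANKL library 2 and 0.182 without untreated library 1.

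Within RANKL-treated cells levels rose between 4 and 14 hours, a comparison added after the data had been seen. No untreated cells were sampled at these hours, so RANKL and hours in culture cannot be told apart here. The same holds for later comparisons between hours within a treatment. The rise started from the lower levels of 4 hours, and against untreated cells 7 members were called higher at 14 hours. From 4 to 14 hours 25 of 43 members rose, where 8.02% of the tested genes were called higher and 9.71% lower. By contrast, 0 members were lower by edgeR, 0 at an unadjusted p under 0.05 and 0 by DESeq2. The called members came from 8 of the 9 roles: 4 of 6 of CDK1, its cyclins and phosphatases, all 3 Polo, Aurora A and NEK2 kinases, 3 of 4 spindle checkpoint genes, 3 of 4 anaphase genes, all 4 genes of the chromosomal passenger complex, 1 of 6 kinetochore genes, 4 of 6 spindle genes and 3 of 6 genes of the central spindle and cytokinesis. None of Top2a, Mki67, Cdca3 and Foxm1 passed. These role counts are from the fit without the block, and with the block 38 of the 43 members were called higher. The macrophage markers summed to 4192 and 5191 CPM at 14 hours and 8029 and 10330.0 CPM at 4 hours, and their part in these changes was not tested. Bub1 had 302 and 278 CPM at 14 hours, against 179 and 170.5 CPM at 4 hours (log2 fold change 0.73, SE 0.087, adjusted p = 8.23e-05), and Cdc20 had 189 and 236 CPM against 123 and 128 CPM (log2 fold change 0.76, SE 0.17, adjusted p = 0.00705). Both pairs were separated. The centrosome kinase Nek2 rose (log2 fold change 0.58, SE 0.1, adjusted p = 0.00167), as did the spindle protein Hmmr (log2 fold change 0.56, SE 0.13, adjusted p = 0.00843), Ube2c (log2 fold change 0.64, SE 0.12, adjusted p = 0.00233) and Bub1b (log2 fold change 0.53, SE 0.1, adjusted p = 0.00313).

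Of the core kinases and cyclin, Ccnb1 (log2 fold change 0.54, SE 0.087, adjusted p = 0.000722), Cdk1 (log2 fold change 0.35, SE 0.098, adjusted p = 0.0233), Plk1 (log2 fold change 0.47, SE 0.13, adjusted p = 0.0197) and the passenger kinase Aurkb (log2 fold change 0.55, SE 0.13, adjusted p = 0.00795) rose between 4 and 14 hours of RANKL, together with Racgap1 of the central spindle (log2 fold change 0.51, SE 0.098, adjusted p = 0.00285). Top2a, Foxm1 and Mki67 did not pass. These genes had log2 fold changes of 0.43, 0.33 and 0.26 in that order, with SE of 0.12 to 0.28 and adjusted p of 0.0892 to 0.589. All but 7 members had separated groups, 36 with both 14-hour libraries above both 4-hour libraries, and separation was not counted over all tested genes. Calls numbered 14 and 14 without RANKL libraries 1 and 2 of 14 hours, and 11 and 10 without RANKL libraries 1 and 2 of 4 hours. Ccnb1, Nek2, Bub1, Bub1b, Ube2c, Kif2c, Kif20a and Racgap1 stayed called in all 4. For Cdc20 the adjusted p was 0.0753 without RANKL library 2 of 14 hours and 0.0564 without RANKL library 1 of 4 hours. Cdk1 was called in none of the 4 fits without 1 library, with adjusted p of 0.051 to 0.21. Plk1 had an adjusted p of 0.184 without RANKL library 2 of 14 hours, 0.104 without RANKL library 1 of 4 hours and 0.0887 without RANKL library 2 of 4 hours. For Aurkb the adjusted p was 0.075 without RANKL library 2 of 14 hours and 0.0622 without RANKL library 1 of 4 hours. Hmmr had an adjusted p of 0.094 without RANKL library 1 of 14 hours, 0.0501 without RANKL library 1 of 4 hours and 0.0529 without RANKL library 2 of 4 hours. With the block 38 were called higher and 0 lower, against 19.9% and 18.8% of the tested genes.

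From 14 to 24 hours of RANKL, also a comparison added after the data had been seen, 1 member fell, where 1.13% of the tested genes were called higher and 1.78% lower. This was Anln, with 223 and 218 CPM at 24 hours and 351 and 296 CPM at 14 hours (log2 fold change -0.55, SE 0.099, adjusted p = 0.00761), and the groups did not overlap. For Anln the adjusted p was 0.0505 without RANKL library 1 of 24 hours, 0.0659 without RANKL library 2 of 24 hours and 0.0944 without RANKL library 1 of 14 hours. 0 members were higher by edgeR, 0 at an unadjusted p under 0.05 and 0 by DESeq2. With the block 0 were called higher and 10 lower, against 6.44% and 10.4% of the tested genes. None of the 8 core members passed. Their log2 fold changes were -0.20, -0.16, -0.43, -0.16, -0.12, -0.29, -0.20 and -0.37 for Cdk1, Ccnb1, Plk1, Aurkb, Bub1, Top2a, Foxm1 and Mki67, with SE of 0.087 to 0.28 and adjusted p of 0.0974 to 0.646. The members' median log2 fold change was -0.17, with a range of -0.55 to 0.17.

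At 24 against 4 hours of RANKL 11 members rose and Anln fell (log2 fold change -0.30, SE 0.099, adjusted p = 0.0427), where 9.77% of the tested genes were called higher and 12.6% lower. Of the spindle checkpoint Bub1 (log2 fold change 0.61, SE 0.087, adjusted p = 0.000193), Bub1b (log2 fold change 0.58, SE 0.1, adjusted p = 0.00119) and Mad2l1 (log2 fold change 0.37, SE 0.12, adjusted p = 0.0355) rose, 3 of the 4 genes. Macrophage markers over these hours summed to 3195 and 3668 CPM at 24 hours and 8029 and 10330.0 CPM at 4 hours. Bub1b had 331 and 368 CPM at 24 hours and 223 and 246 CPM at 4 hours, with no overlap. Ccnb1 (log2 fold change 0.38, SE 0.087, adjusted p = 0.00542), Kif2c (log2 fold change 0.40, SE 0.094, adjusted p = 0.0074), Aurkb (log2 fold change 0.39, SE 0.13, adjusted p = 0.0371) and Ube2c (log2 fold change 0.39, SE 0.12, adjusted p = 0.0314) rose as well. The list was completed by Cdca3, a trigger of mitotic entry (log2 fold change 0.42, SE 0.13, adjusted p = 0.0301), the phosphatase Cdc25b (log2 fold change 0.38, SE 0.13, adjusted p = 0.0487), and Nek2 and Kif20a with log2 fold changes of 0.35 and 0.26. Cdk1, Plk1, Top2a, Foxm1 and Mki67 did not pass. They had log2 fold changes of 0.16, 0.04, 0.14, 0.13 and -0.11 in that order, with SE of 0.098 to 0.28 and adjusted p of 0.296 to 0.864. Calls numbered 7 and 4 without RANKL libraries 1 and 2 of 24 hours, and 4 and 3 without RANKL libraries 1 and 2 of 4 hours. Ccnb1, Bub1 and Bub1b stayed called in all 4, and the other 9 calls, Anln among them, ended in at least 1. With the block 19 were called higher and 1 lower, against 21.6% and 21.1% of the tested genes.

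**Figure D2:**
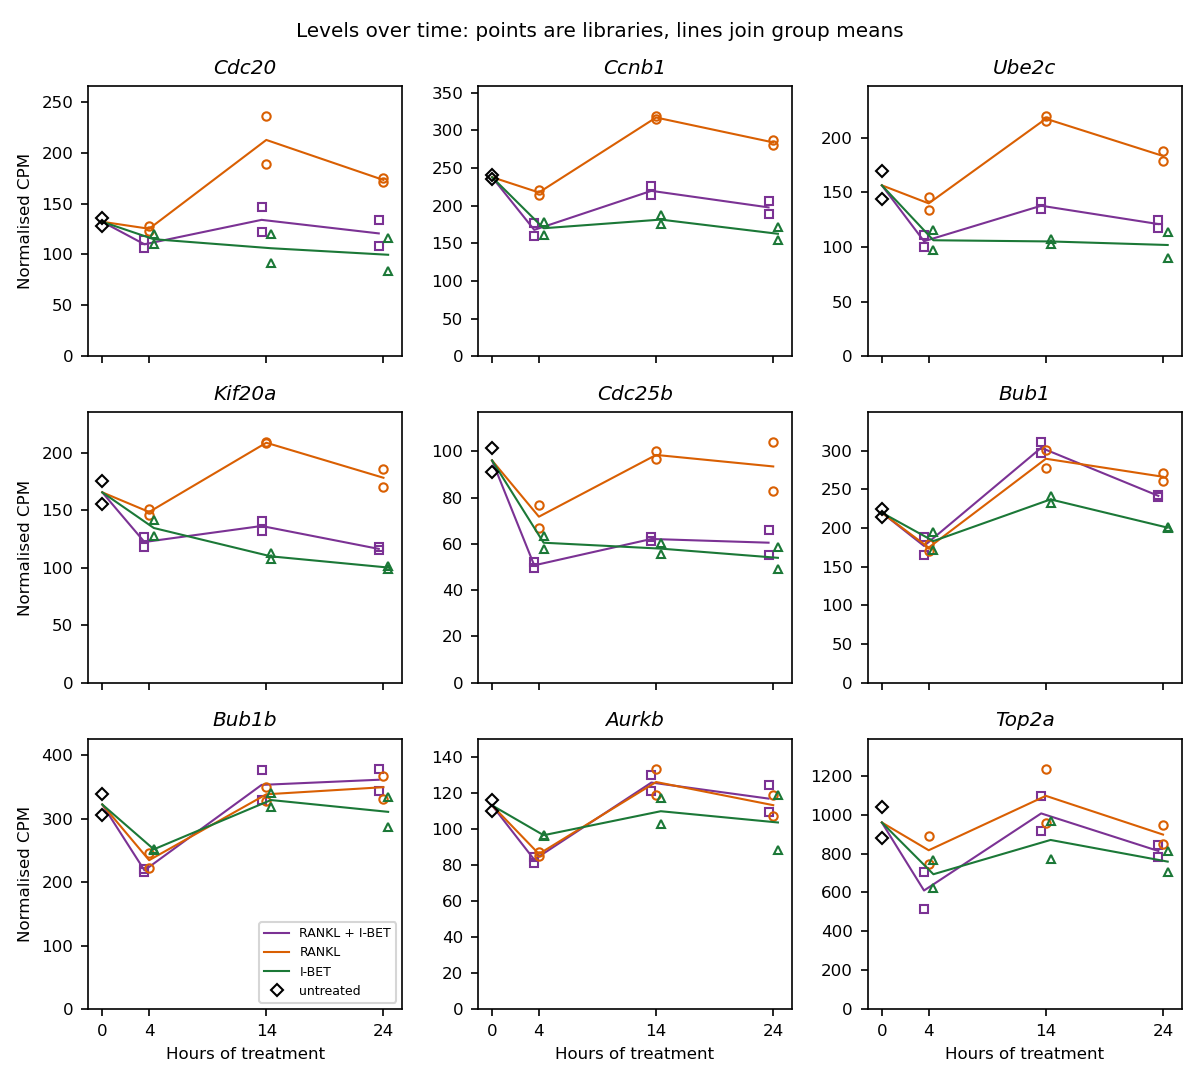
CPM of 9 mitosis genes by hour of treatment, with each library as a point and lines through the means of 2 libraries, for RANKL plus I-BET, RANKL and I-BET, and with the untreated libraries at hour 0. With RANKL alone Cdc20, Ube2c, Ccnb1 and Kif20a are highest at 14 hours and lie above both I-BET groups at 14 and 24 hours, while Bub1 and Bub1b at 14 and 24 hours are about as high with RANKL plus I-BET as with RANKL.

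I-BET alone was next compared with untreated cells. At 4, 14 and 24 hours 11, 8 and 19 of 43 members were lower than in untreated cells, and none was called higher. Of all tested genes 6.48%, 8.37% and 10.2% were called lower at these hours. Cdk1, both B cyclins, Cdc25b, Ube2c and Kif20a were called at all 3 hours, Ube2c being 1 of the 4 anaphase genes. Kif20a and Cdc25b were the members with the largest falls at 24 hours.

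At 4 hours of I-BET the 11 lower members compare with 6.48% of the tested genes called lower and 4.03% called higher, and 0 members were higher by edgeR, 0 at an unadjusted p under 0.05 and 0 by DESeq2. Cdc25b, which removes the inhibitory phosphates of CDK1, had 63.4 and 57.7 CPM with I-BET, against 101 and 90.9 CPM in untreated cells, and fell (log2 fold change -0.67, SE 0.13, adjusted p = 0.00544). Ube2c (log2 fold change -0.56, SE 0.12, adjusted p = 0.00957), Ccnb1 (log2 fold change -0.48, SE 0.087, adjusted p = 0.00331) and Cdk1 (log2 fold change -0.44, SE 0.099, adjusted p = 0.0115) fell too. In each of the 4 both I-BET libraries lay below both untreated libraries. Cyclin A2, Ccna2 (log2 fold change -0.40, SE 0.11, adjusted p = 0.0395), Ccnb2 (log2 fold change -0.42, SE 0.12, adjusted p = 0.038) and the kinetochore subunits Nuf2 (log2 fold change -0.43, SE 0.086, adjusted p = 0.00606) and Spc25 (log2 fold change -0.37, SE 0.1, adjusted p = 0.0309) were also lower. Bub1b, Racgap1 and Kif20a completed the list with log2 fold changes of -0.36, -0.36 and -0.30.

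Among the core members at 4 hours of I-BET, Plk1, Aurkb, Bub1, Top2a, Foxm1 and Mki67 did not pass. The log2 fold changes were -0.21, -0.23, -0.26, -0.47, -0.33 and -0.05 in that order, with SE of 0.087 to 0.28 and adjusted p of 0.0725 to 0.954. Calls numbered 6 and 0 without I-BET libraries 1 and 2, and 3 and 4 without untreated libraries 1 and 2. No call at 4 hours held in all 4 of these fits. Cdc25b had an adjusted p of 0.0771 without I-BET library 2 and 0.0563 without untreated library 1. For Ccnb1 the adjusted p was 0.0584 without I-BET library 2. Ube2c had an adjusted p of 0.128 without I-BET library 2 and 0.104 without untreated library 1. For Cdk1 the adjusted p was 0.0516 without I-BET library 1, 0.115 without I-BET library 2 and 0.124 without untreated library 2. With the block 0 were called higher and 28 lower, against 12.8% and 16.2% of the tested genes.

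At 14 hours of I-BET 8 members fell, where 5.29% of the tested genes were called higher and 8.37% lower, and 0 members were higher by edgeR, 0 at an unadjusted p under 0.05 and 0 by DESeq2. Cdc25b had 55.7 and 60.3 CPM with I-BET and 101 and 90.9 CPM in untreated cells (log2 fold change -0.73, SE 0.13, adjusted p = 0.00181). Ccnb2 had 81.2 and 101 CPM against 139.6 and 143 CPM (log2 fold change -0.63, SE 0.12, adjusted p = 0.00263), and Kif20a had 113 and 108 CPM against 176 and 156 CPM (log2 fold change -0.59, SE 0.087, adjusted p = 0.000436). All 3 were separated from the untreated libraries and stayed called without any single library. Ube2c (log2 fold change -0.57, SE 0.12, adjusted p = 0.00537), Cdk1 (log2 fold change -0.45, SE 0.099, adjusted p = 0.00703), Ccnb1 (log2 fold change -0.39, SE 0.087, adjusted p = 0.00787), Aurka (log2 fold change -0.37, SE 0.11, adjusted p = 0.0492) and Tpx2, the activator of Aurora A on the spindle (log2 fold change -0.37, SE 0.11, adjusted p = 0.0438), made up the rest. Ube2c had an adjusted p of 0.0533 without I-BET library 2 and 0.0751 without untreated library 1. For Cdk1 the adjusted p was 0.0665 without I-BET library 1 and 0.094 without untreated library 2. Ccnb1 had an adjusted p of 0.0889 without I-BET library 1 and 0.0751 without untreated library 2. Tpx2 was called in none of the 4 fits without 1 library, with adjusted p of 0.0557 to 0.333. Aurka was called in none of the 4 fits without 1 library, with adjusted p of 0.126 to 0.264. Calls numbered 4 and 5 without I-BET libraries 1 and 2, and 5 and 4 without untreated libraries 1 and 2. Plk1, Aurkb, Bub1, Top2a, Foxm1 and Mki67 did not pass. These genes had log2 fold changes of -0.32, -0.04, 0.11, -0.14, -0.33 and -0.01 in that order, with SE of 0.087 to 0.28 and adjusted p of 0.108 to 0.998. With the block 0 were called higher and 21 lower, against 14.4% and 15.4% of the tested genes.

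At 24 hours of I-BET 19 members fell, where 7.50% of the tested genes were called higher and 10.2% lower, and 0 members were higher by edgeR, 0 at an unadjusted p under 0.05 and 0 by DESeq2. Kif20a, which brings the passenger complex to the central spindle, had 98.6 and 102 CPM with I-BET, against 176 and 156 CPM in untreated cells (log2 fold change -0.72, SE 0.087, adjusted p = 5.55e-05). Cdc25b had 49.2 and 58.8 CPM against 101 and 90.9 CPM (log2 fold change -0.83, SE 0.13, adjusted p = 0.000497), and Aurka had 76.3 and 99.5 CPM against 139 and 129 CPM (log2 fold change -0.61, SE 0.11, adjusted p = 0.0019). None of these overlapped with untreated cells. Ccnb2 (log2 fold change -0.64, SE 0.12, adjusted p = 0.00184), Ube2c (log2 fold change -0.62, SE 0.12, adjusted p = 0.00245), Tpx2 (log2 fold change -0.55, SE 0.11, adjusted p = 0.00341) and Ccnb1 (log2 fold change -0.55, SE 0.087, adjusted p = 0.000544) fell by similar amounts. Of the remaining core members Cdk1 (log2 fold change -0.46, SE 0.099, adjusted p = 0.00505), Plk1 (log2 fold change -0.45, SE 0.13, adjusted p = 0.0226) and Foxm1 (log2 fold change -0.43, SE 0.12, adjusted p = 0.0281) fell.

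The other 9 members lower at 24 hours of I-BET were Ccna2, Incenp, Cdca8, Cenpa, Ndc80, Nuf2, Kif2c, Racgap1 and Anln, with log2 fold changes of -0.36, -0.39, -0.41, -0.52, -0.40, -0.45, -0.34, -0.40 and -0.51 in that order. By role these falls took in 5 of 6 genes of CDK1, its cyclins and phosphatases and 3 of 6 kinetochore genes. They also took in 3 of 6 genes of the central spindle, but 0 of the 4 spindle checkpoint genes. These counts by role are from the fit without the block. Aurkb, Bub1, Top2a and Mki67 did not pass. Their log2 fold changes were -0.13, -0.13, -0.34 and -0.35 in that order, with SE of 0.087 to 0.28 and adjusted p of 0.249 to 0.574. Calls numbered 9 and 18 without I-BET libraries 1 and 2, and 11 and 13 without untreated libraries 1 and 2. Ccnb1, Ccnb2, Cdc25b, Aurka, Ube2c, Nuf2, Tpx2, Kif20a and Anln stayed called in all 4. For Cdk1 the adjusted p was 0.087 without I-BET library 1 and 0.0685 without untreated library 2. Plk1 had an adjusted p of 0.247 without I-BET library 1, 0.134 without untreated library 1 and 0.082 without untreated library 2. For Foxm1 the adjusted p was 0.137 without I-BET library 1, 0.0958 without I-BET library 2 and 0.224 without untreated library 1. With the block 0 were called higher and 34 lower, against 18.1% and 18.1% of the tested genes.

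Between 4 and 24 hours of I-BET 1 of the 43 members was called. Kif20a fell (log2 fold change -0.43, SE 0.087, adjusted p = 0.00632), with 98.6 and 102 CPM at 24 hours and 142 and 128 CPM at 4 hours, and no other member passed, where 4.91% of the tested genes were called higher and 5.52% lower. The groups of Kif20a did not overlap. Kif20a had an adjusted p of 0.058 without I-BET library 1 of 24 hours and 0.0696 without I-BET library 1 of 4 hours. 0 members were higher by edgeR, 2 at an unadjusted p under 0.05 and 2 by DESeq2. None of the 8 core members passed. They had log2 fold changes of -0.01, -0.06, -0.24, 0.10, 0.13, 0.13, -0.10 and -0.31 for Cdk1, Ccnb1, Plk1, Aurkb, Bub1, Top2a, Foxm1 and Mki67, with SE of 0.087 to 0.28 and adjusted p of 0.27 to 0.955. With the block 2 were called higher and 15 lower, against 15.9% and 14.7% of the tested genes.

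RANKL plus I-BET was compared with untreated cells as well. At 4 hours, where 7.24% of the tested genes were called lower, 20 of 43 members were, and the fall reached 8 of the 9 roles. At 14 hours 3 members were lower, Ccnb2, Cdc25b and Kif20a, and Bub1 was higher. That count of 3 did not exceed the 8.47% of the tested genes called lower. At 24 hours, where 10.6% of the tested genes were called lower, 8 members were, 3 of them from the group of CDK1, its cyclins and phosphatases. Both treated libraries lay below both untreated ones in 27 of the 43 and above them in 3. Such separation was not counted over all tested genes.

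At 4 hours the 20 lower members compare with 7.24% of the tested genes called lower and 5.55% called higher, and 0 members were higher by edgeR, 0 at an unadjusted p under 0.05 and 0 by DESeq2. Cdc25b had 52.0 and 49.5 CPM with RANKL plus I-BET, against 101 and 90.9 CPM in untreated cells (log2 fold change -0.92, SE 0.13, adjusted p = 0.000505). Bub1b had 221 and 216 CPM against 305 and 339 CPM (log2 fold change -0.56, SE 0.1, adjusted p = 0.00304), and Foxm1 had 113 and 96.2 CPM against 173 and 149 CPM (log2 fold change -0.62, SE 0.12, adjusted p = 0.00488). Both treated libraries were below both untreated ones in all 3. Top2a (log2 fold change -0.65, SE 0.18, adjusted p = 0.0335), Ube2c (log2 fold change -0.57, SE 0.12, adjusted p = 0.0066), Ccna2 (log2 fold change -0.55, SE 0.11, adjusted p = 0.00562), Nuf2 (log2 fold change -0.54, SE 0.086, adjusted p = 0.00114) and Racgap1 (log2 fold change -0.52, SE 0.099, adjusted p = 0.00362) fell by more than 0.5 on the log2 scale. Ccnb1 (log2 fold change -0.50, SE 0.087, adjusted p = 0.00191), Cdk1 (log2 fold change -0.48, SE 0.099, adjusted p = 0.0055), Aurkb (log2 fold change -0.45, SE 0.13, adjusted p = 0.0331) and Bub1 (log2 fold change -0.31, SE 0.087, adjusted p = 0.0305) fell as well. The other 8 were Ccnb2, Birc5, Incenp, Cdca8, Ndc80, Kif4, Kif20a and Ect2, with log2 fold changes of -0.46, -0.40, -0.49, -0.39, -0.44, -0.46, -0.44 and -0.40 in that order.

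All 4 genes of the chromosomal passenger complex, which corrects wrong attachments and guides cleavage, were among those called at 4 hours of RANKL plus I-BET: Aurkb, its inner centromere scaffold Incenp, survivin (Birc5) and borealin (Cdca8). None of Plk1, Aurka and Nek2 was called there in the fit without the block. Plk1 and Mki67 did not pass. The log2 fold changes were -0.34 and -0.30 in that order, with SE of 0.13 to 0.28 and adjusted p of 0.103 to 0.596. Calls numbered 20 and 6 without RANKL plus I-BET libraries 1 and 2, and 8 and 11 without untreated libraries 1 and 2. Ccnb1, Cdc25b, Bub1b, Incenp and Nuf2 stayed called in all 4. For Top2a the adjusted p was 0.252 without RANKL plus I-BET library 2, 0.203 without untreated library 1 and 0.0648 without untreated library 2. Foxm1 had an adjusted p of 0.0611 without RANKL plus I-BET library 2 and 0.0558 without untreated library 1. For Ube2c the adjusted p was 0.074 without RANKL plus I-BET library 2 and 0.0816 without untreated library 1. Cdk1 had an adjusted p of 0.0696 without untreated library 2. Aurkb was called in none of the 4 fits without 1 library, with adjusted p of 0.11 to 0.172. For Bub1 the adjusted p was 0.245 without RANKL plus I-BET library 2, 0.17 without untreated library 1 and 0.105 without untreated library 2. With the block 0 were called higher and 37 lower, against 14.6% and 15.6% of the tested genes.

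At 14 hours Bub1 had 311 and 297 CPM with RANKL plus I-BET and 225 and 215 CPM in untreated cells, and rose (log2 fold change 0.47, SE 0.087, adjusted p = 0.00235). Cdc25b (log2 fold change -0.63, SE 0.13, adjusted p = 0.00486), Ccnb2 (log2 fold change -0.56, SE 0.12, adjusted p = 0.00564) and Kif20a (log2 fold change -0.28, SE 0.087, adjusted p = 0.0466) fell. These 4 calls stand where 5.75% of the tested genes were called higher and 8.47% lower, and the median over the 43 was 0.02. Cdk1, Ccnb1, Plk1, Aurkb, Top2a, Foxm1 and Mki67 did not pass. These genes had log2 fold changes of -0.15, -0.11, -0.03, 0.15, 0.07, -0.15 and 0.09 in that order, with SE of 0.087 to 0.28 and adjusted p of 0.404 to 0.931. Bub1 stayed called without any single library. Cdc25b had an adjusted p of 0.0545 without untreated library 1. For Ccnb2 the adjusted p was 0.0712 without RANKL plus I-BET library 1 and 0.0536 without untreated library 2. Kif20a was called in none of the 4 fits without 1 library, with adjusted p of 0.0642 to 0.343. Calls numbered 2 and 3 without RANKL plus I-BET libraries 1 and 2, and 2 and 2 without untreated libraries 1 and 2. With the block 3 were called higher and 5 lower, against 16.2% and 15.1% of the tested genes.

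At 24 hours of RANKL plus I-BET 8 members were lower than in untreated cells, where 7.27% of the tested genes were called higher and 10.6% lower, and 0 members were higher by edgeR, 1 at an unadjusted p under 0.05 and 0 by DESeq2. Kif20a had 115 and 118 CPM, against 176 and 156 CPM in untreated cells (log2 fold change -0.51, SE 0.087, adjusted p = 0.000986), and Cdc25b had 55.1 and 66.0 CPM against 101 and 90.9 CPM (log2 fold change -0.67, SE 0.13, adjusted p = 0.00256). Both were separated and stayed called without any single library. Ccnb2 (log2 fold change -0.52, SE 0.12, adjusted p = 0.00753), Tpx2 (log2 fold change -0.40, SE 0.11, adjusted p = 0.0236), Ube2c (log2 fold change -0.37, SE 0.12, adjusted p = 0.0479), Anln (log2 fold change -0.33, SE 0.099, adjusted p = 0.0348) and Ccnb1 (log2 fold change -0.27, SE 0.087, adjusted p = 0.0484) fell, and Nuf2 did so with -0.32. Cdk1, Plk1, Aurkb, Bub1, Top2a, Foxm1 and Mki67 did not pass. Their log2 fold changes were -0.28, -0.23, 0.05, 0.14, -0.24, -0.28 and -0.35 in that order, with SE of 0.087 to 0.28 and adjusted p of 0.0707 to 0.86. Calls numbered 2 and 3 without RANKL plus I-BET libraries 1 and 2, and 3 and 3 without untreated libraries 1 and 2. Ccnb2 had an adjusted p of 0.11 without RANKL plus I-BET library 1 and 0.0628 without untreated library 2. For Tpx2 the adjusted p was 0.153 without RANKL plus I-BET library 1, 0.0738 without RANKL plus I-BET library 2 and 0.227 without untreated library 1. Ccnb1 was called in none of the 4 fits without 1 library, with adjusted p of 0.091 to 0.303. Ube2c was called in none of the 4 fits without 1 library, with adjusted p of 0.0609 to 0.37. Anln was called in none of the 4 fits without 1 library, with adjusted p of 0.0758 to 0.253. With the block 1 was called higher and 24 lower, against 19.3% and 18.2% of the tested genes.

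Between 4 and 24 hours of RANKL plus I-BET 8 members rose, where 6.75% of the tested genes were called higher and 8.35% lower, and 0 members were lower by edgeR, 0 at an unadjusted p under 0.05 and 0 by DESeq2. All 4 spindle checkpoint genes were among them. Bub1b had 344 and 378 CPM at 24 hours, against 221 and 216 CPM at 4 hours, with no overlap (log2 fold change 0.72, SE 0.1, adjusted p = 0.000362). Ttk, the kinase at the head of the checkpoint, rose (log2 fold change 0.48, SE 0.093, adjusted p = 0.00286), as did Bub1 (log2 fold change 0.45, SE 0.087, adjusted p = 0.00295) and Mad2l1, the protein that binds and holds CDC20 (log2 fold change 0.45, SE 0.12, adjusted p = 0.0191). The others were Aurkb (log2 fold change 0.49, SE 0.13, adjusted p = 0.0162), Birc5 (log2 fold change 0.45, SE 0.09, adjusted p = 0.00388), Ccna2 (log2 fold change 0.36, SE 0.11, adjusted p = 0.0499) and Ndc80 (log2 fold change 0.31, SE 0.091, adjusted p = 0.035). Cdk1, Ccnb1, Plk1, Top2a, Foxm1 and Mki67 did not pass. They had log2 fold changes of 0.21, 0.24, 0.11, 0.41, 0.34 and -0.06 in that order, with SE of 0.087 to 0.28 and adjusted p of 0.0845 to 0.927. Calls numbered 7 and 3 without RANKL plus I-BET libraries 1 and 2 of 24 hours, and 9 and 4 without RANKL plus I-BET libraries 1 and 2 of 4 hours. Ttk, Bub1 and Bub1b stayed called in all 4. Aurkb had an adjusted p of 0.159 without RANKL plus I-BET library 2 of 24 hours, 0.103 without RANKL plus I-BET library 1 of 4 hours and 0.0631 without RANKL plus I-BET library 2 of 4 hours. For Mad2l1 the adjusted p was 0.217 without RANKL plus I-BET library 2 of 24 hours, 0.0646 without RANKL plus I-BET library 1 of 4 hours and 0.114 without RANKL plus I-BET library 2 of 4 hours. Birc5 had an adjusted p of 0.053 without RANKL plus I-BET library 2 of 24 hours. For Ccna2 the adjusted p was 0.16 without RANKL plus I-BET library 1 of 24 hours, 0.17 without RANKL plus I-BET library 2 of 24 hours and 0.294 without RANKL plus I-BET library 2 of 4 hours. Ndc80 had an adjusted p of 0.33 without RANKL plus I-BET library 2 of 24 hours and 0.223 without RANKL plus I-BET library 2 of 4 hours. With the block 21 were called higher and 0 lower, against 17.9% and 18.2% of the tested genes.

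The effect of I-BET in RANKL-treated cells was read from RANKL plus I-BET against RANKL alone at the same hour. This keeps hours in culture equal and takes no level from the untreated libraries, which still enter the shared estimate of the spread. The effect was uneven over the set. Cdk1, Ccnb1, Cdc25b and Ube2c were called lower with I-BET at 4, 14 and 24 hours. Ccnb2, Aurka, Cdc20, Tpx2 and Kif20a were called lower at 14 and 24 hours. The members called lower numbered 4, 9 and 12 of the 43 at 4, 14 and 24 hours. Of all tested genes 6.46%, 11.2% and 12.9% were called lower in that order. Some of these calls, those at 4 hours among them, depended on single libraries, as given below. Cenpa, Kif2c and Hmmr passed at 24 hours, although 24 against 14 hours was not tested, and the checkpoint kinase Ttk was higher at 24 hours. In the fit without the block the other 30 of the 43 members passed at no hour.

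At 4 hours 4 members fell, where 4.93% of the tested genes were called higher and 6.46% lower, and 0 members were higher by edgeR, 1 at an unadjusted p under 0.05 and 0 by DESeq2. Ccnb1 had 176 and 159 CPM with RANKL plus I-BET, against 220.3 and 215 CPM with RANKL (log2 fold change -0.37, SE 0.087, adjusted p = 0.0126). Cdk1 had 126 and 129 CPM against 154 and 170.1 CPM (log2 fold change -0.34, SE 0.098, adjusted p = 0.0369), Cdc25b had 52.0 and 49.5 CPM against 76.8 and 66.8 CPM (log2 fold change -0.50, SE 0.13, adjusted p = 0.0227), and Ube2c had 111 and 99.8 CPM against 146 and 134 CPM (log2 fold change -0.41, SE 0.12, adjusted p = 0.0407). The groups were separate for all 4 genes. Osteoclast markers summed to 510.0 and 288 CPM with RANKL plus I-BET and 1534 and 943 CPM with RANKL at this hour. Plk1, Aurkb, Bub1, Top2a, Foxm1 and Mki67 did not pass. The log2 fold changes were -0.19, -0.05, 0.02, -0.42, -0.40 and 0.00 in that order, with SE of 0.087 to 0.28 and adjusted p of 0.0541 to 1. Calls numbered 1 and 0 without RANKL plus I-BET libraries 1 and 2, and 0 and 2 without RANKL libraries 1 and 2. For Ccnb1 the adjusted p was 0.14 without RANKL plus I-BET library 2, 0.082 without RANKL library 1 and 0.0629 without RANKL library 2. Cdc25b had an adjusted p of 0.0862 without RANKL plus I-BET library 1, 0.149 without RANKL plus I-BET library 2 and 0.192 without RANKL library 1. Cdk1 was called in none of the 4 fits without 1 library, with adjusted p of 0.0729 to 0.285. Ube2c was called in none of the 4 fits without 1 library, with adjusted p of 0.0815 to 0.257. With the block 1 was called higher and 15 lower, against 13.7% and 14.4% of the tested genes.

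At 14 hours 9 members fell, where 10.8% of the tested genes were called higher and 11.2% lower. Cdc20 had 122 and 146 CPM with RANKL plus I-BET, against 189 and 236 CPM with RANKL (log2 fold change -0.66, SE 0.17, adjusted p = 0.0119), and Ube2c had 141 and 134 CPM against 215 and 219.7 CPM (log2 fold change -0.66, SE 0.12, adjusted p = 0.00127). Ccnb1 had 214 and 226 CPM against 319 and 315 CPM (log2 fold change -0.53, SE 0.087, adjusted p = 0.00058). No library of these genes crossed over. Ccnb2 had 91.96 and 99.6 CPM against 135 and 149 CPM (log2 fold change -0.57, SE 0.12, adjusted p = 0.0031), Cdc25b had 61.4 and 62.9 CPM against 96.9 and 100.1 CPM (log2 fold change -0.66, SE 0.13, adjusted p = 0.00209) and Kif20a had 141 and 132 CPM against 209 and 209 CPM (log2 fold change -0.61, SE 0.087, adjusted p = 0.000181). These were separated too, so the fall covered both B cyclins, an activating phosphatase, the anaphase genes Cdc20 and Ube2c and a cytokinesis motor. Aurka (log2 fold change -0.41, SE 0.11, adjusted p = 0.0181), Cdk1 (log2 fold change -0.37, SE 0.098, adjusted p = 0.015) and Tpx2 with -0.37 completed the 9.

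In the same comparison, without the block, 0 of the 4 spindle checkpoint genes, 0 of the 4 chromosomal passenger genes and 0 of the 6 kinetochore genes passed. Their median log2 fold changes at 14 hours were 0.07, -0.05 and -0.04 in that order. The median was -0.45 for CDK1, its cyclins and phosphatases and -0.49 for the anaphase genes. The members' median log2 fold change was -0.14, with a range of -0.66 to 0.26, against -0.03 for all tested genes. Plk1, Aurkb, Bub1, Top2a, Foxm1 and Mki67 did not pass. These genes had log2 fold changes of -0.35, 0.00, 0.07, -0.12, -0.25 and 0.13 in that order, with SE of 0.087 to 0.28 and adjusted p of 0.0624 to 0.989. Osteoclast markers summed to 195 and 119.6 CPM with RANKL plus I-BET and 1414 and 1065 CPM with RANKL in these libraries. Their macrophage markers summed to 6173 and 7460.0 CPM with RANKL plus I-BET and 4192 and 5191 CPM with RANKL. Among these markers Cd68, Spi1 and Itgam had a lower mean RPKM with RANKL plus I-BET. For Bub1 the libraries had 311 and 297 CPM with RANKL plus I-BET and 302 and 278 CPM with RANKL, which overlapped. 0 members were higher by edgeR, 1 at an unadjusted p under 0.05 and 1 by DESeq2. Calls numbered 5 and 6 without RANKL plus I-BET libraries 1 and 2, and 7 and 5 without RANKL libraries 1 and 2. Ccnb1, Ccnb2, Cdc25b, Ube2c and Kif20a stayed called in all 4. For Cdc20 the adjusted p was 0.125 without RANKL plus I-BET library 1 and 0.133 without RANKL library 2. Aurka was called in none of the 4 fits without 1 library, with adjusted p of 0.0764 to 0.111. Cdk1 was called in none of the 4 fits without 1 library, with adjusted p of 0.069 to 0.132. With the block 1 was called higher and 17 lower, against 19.7% and 20.6% of the tested genes.

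**Figure D3:**
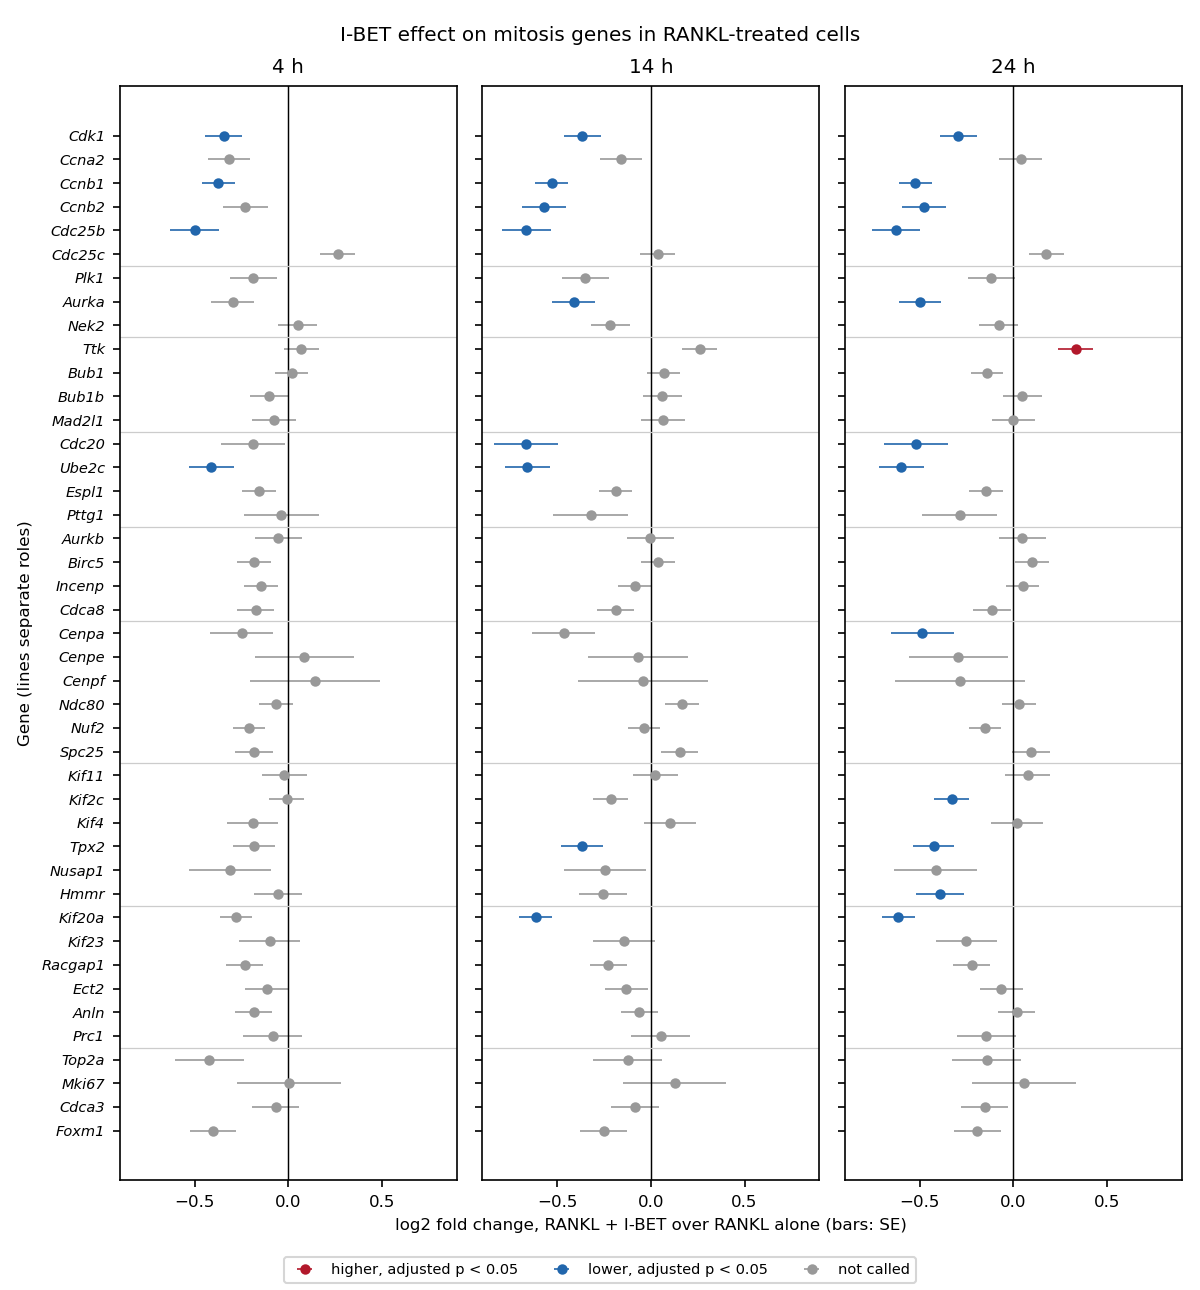
Log2 fold change of each of the 43 mitosis genes for RANKL plus I-BET over RANKL alone at 4, 14 and 24 hours (3 panels), with bars of 1 SE, genes in blocks by role, blue or red marks for members called lower or higher at an adjusted p under 0.05 and grey marks for the rest. Ccnb1, Cdc25b and Ube2c lie below 0 in each panel, whereas the spindle checkpoint genes stay near 0 at 4 and 14 hours and Ttk is above 0 at 24 hours.

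At 24 hours 12 members fell and 1 rose, where 13.9% of the tested genes were called higher and 12.9% lower. Kif20a had 115 and 118 CPM with RANKL plus I-BET, against 186 and 171 CPM with RANKL (log2 fold change -0.61, SE 0.087, adjusted p = 0.000128). Ube2c had 117 and 125 CPM against 179 and 187 CPM (log2 fold change -0.60, SE 0.12, adjusted p = 0.00191) and Ccnb1 had 189 and 206 CPM against 281 and 287 CPM (log2 fold change -0.52, SE 0.087, adjusted p = 0.000469). These libraries did not overlap. Cdc25b (log2 fold change -0.63, SE 0.13, adjusted p = 0.00238), Cdc20 (log2 fold change -0.52, SE 0.17, adjusted p = 0.0365), Aurka (log2 fold change -0.50, SE 0.11, adjusted p = 0.00476), the centromeric histone Cenpa (log2 fold change -0.49, SE 0.17, adjusted p = 0.0468) and Cdk1 (log2 fold change -0.29, SE 0.098, adjusted p = 0.0394) fell too. The other 4 were Ccnb2, Kif2c, Tpx2 and Hmmr, with log2 fold changes of -0.48, -0.33, -0.43 and -0.39. Ttk was the member that rose, its libraries separate, with 80.9 and 87.4 CPM with RANKL plus I-BET and 68.1 and 65.5 CPM with RANKL (log2 fold change 0.33, SE 0.093, adjusted p = 0.0159).

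Among the core members at 24 hours Plk1, Aurkb, Bub1, Top2a, Foxm1 and Mki67 did not pass. Their log2 fold changes were -0.12, 0.05, -0.14, -0.14, -0.19 and 0.06 in that order, with SE of 0.087 to 0.28 and adjusted p of 0.266 to 0.909. Of the spindle genes, 3 of 6 were called at 24 hours, Tpx2, Kif2c and Hmmr, against 1 of 6 at 14 hours. Calls numbered 5 and 9 without RANKL plus I-BET libraries 1 and 2, and 8 and 6 without RANKL libraries 1 and 2. Ccnb1, Cdc25b, Ube2c and Kif20a stayed called in all 4. Aurka had an adjusted p of 0.0646 without RANKL plus I-BET library 1. For Cdc20 the adjusted p was 0.265 without RANKL plus I-BET library 1, 0.114 without RANKL library 1 and 0.125 without RANKL library 2. Cdk1 had an adjusted p of 0.244 without RANKL plus I-BET library 1, 0.0887 without RANKL plus I-BET library 2 and 0.313 without RANKL library 2. Cenpa was called in none of the 4 fits without 1 library, with adjusted p of 0.0706 to 0.233. For Ttk the adjusted p was 0.12 without RANKL plus I-BET library 2 and 0.0669 without RANKL library 2. With the block 1 was called higher and 18 lower, against 23.1% and 23.5% of the tested genes. Osteoclast markers moved over the same comparison: their summed CPM was 162 and 119 with RANKL plus I-BET and 1658 and 1214 with RANKL at 24 hours, and 8 of 9 tested markers were lower, 0 higher. The macrophage markers summed to 5149 and 5719 CPM with RANKL plus I-BET and 3195 and 3668 CPM with RANKL. Lyz2 had a mean of 2000 RPKM with RANKL plus I-BET and 737 RPKM with RANKL. Cd68 (245 against 327 RPKM), Spi1 (100 against 137 RPKM) and Itgam (1.8 against 2.4 RPKM) went the other way. The part of these cell states in the mitosis gene values was not tested at any of the 3 hours.

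Whether the I-BET effect in RANKL-treated cells differed between hours was tested as a difference of differences. For 14 against 4 hours 0 members were higher by edgeR, 1 at an unadjusted p under 0.05 and 0 by DESeq2, and 0 members were lower by edgeR, 1 at an unadjusted p under 0.05 and 0 by DESeq2, where 2.46% of the tested genes were called higher and 1.12% lower. For 24 against 4 hours the counts were again 0 and 0 by edgeR, with 2 higher and 2 lower at an unadjusted p under 0.05 and 0 by DESeq2, where 4.58% of the tested genes were called higher and 2.71% lower. So without the block the I-BET effect at 14 and 24 hours was not shown to differ from that at 4 hours for any member. Kif20a had a difference of -0.34, SE 0.12, adjusted p = 0.182 for 14 against 4 hours and -0.34, SE 0.12, adjusted p = 0.134 for 24 against 4 hours. For 14 against 4 hours none of the 8 core members passed. They had differences of log2 fold changes of -0.02, -0.16, -0.16, 0.05, 0.05, 0.30, 0.15 and 0.12 for Cdk1, Ccnb1, Plk1, Aurkb, Bub1, Top2a, Foxm1 and Mki67, with SE of 0.12 to 0.39 and adjusted p of 0.653 to 0.976. For 24 against 4 hours none of the 8 core members passed. The differences of log2 fold changes were 0.05, -0.15, 0.07, 0.10, -0.16, 0.28, 0.21 and 0.05 for Cdk1, Ccnb1, Plk1, Aurkb, Bub1, Top2a, Foxm1 and Mki67, with SE of 0.12 to 0.39 and adjusted p of 0.569 to 0.973. With the block 1 was called higher and 3 lower, against 8.70% and 7.42% of the tested genes at 14 against 4 hours, and 1 was called higher and 2 lower, against 12.1% and 9.81% of the tested genes at 24 against 4 hours.

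RANKL plus I-BET was also compared with I-BET alone, which asks whether RANKL moves the set while I-BET is present. No member passed at any hour in the fit without the block, but some did with it. The direction of the values differed between hours: at 14 and 24 hours all 43 log2 fold changes were positive, and at 4 hours 39 of the 43 were negative. Medians over all tested genes were 0.0114, -0.0049 and 1e-04 at 4, 14 and 24 hours.

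At 4 hours 0 members were higher by edgeR, 0 at an unadjusted p under 0.05 and 0 by DESeq2, and 0 members were lower by edgeR, 4 at an unadjusted p under 0.05 and 0 by DESeq2, where 0.480% of the tested genes were called higher and 0.0374% lower. The members' median log2 fold change was -0.10, with a range of -0.29 to 0.07. At 14 hours 0 members were higher by edgeR, 17 at an unadjusted p under 0.05 and 5 by DESeq2, and 0 members were lower by edgeR, 0 at an unadjusted p under 0.05 and 0 by DESeq2, where 0.549% of the tested genes were called higher and 0.355% lower, and the members' median log2 fold change was 0.22, with a range of 0.05 to 0.39. At 24 hours 0 members were higher by edgeR, 10 at an unadjusted p under 0.05 and 0 by DESeq2, and 0 members were lower by edgeR, 0 at an unadjusted p under 0.05 and 0 by DESeq2, where 0.106% of the tested genes were called higher and 0.156% lower, and the members' median log2 fold change was 0.18, with a range of 0.00 to 0.32. Both libraries of RANKL plus I-BET were above both I-BET libraries for 31 members at 14 hours and 25 at 24 hours, and below them for 12 at 4 hours. Neither that separation nor an unadjusted p under 0.05 was counted over all tested genes, whose shares are at an adjusted p under 0.05. With the block at 14 hours 14 were called higher and 0 lower, against 3.57% and 3.01% of the tested genes.

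With the block at 4 hours of this comparison 0 were called higher and 2 lower, against 2.06% and 1.01% of the tested genes, and at 24 hours 2 were called higher and 0 lower, against 1.12% and 1.83% of the tested genes. At 4 hours none of the 8 core members passed. These genes had log2 fold changes of -0.04, -0.02, -0.12, -0.22, -0.05, -0.19, -0.29 and -0.25 for Cdk1, Ccnb1, Plk1, Aurkb, Bub1, Top2a, Foxm1 and Mki67, with SE of 0.087 to 0.28 and adjusted p of 0.825 to 1. At 14 hours none of the 8 core members passed. Their log2 fold changes were 0.30, 0.28, 0.28, 0.19, 0.36, 0.21, 0.18 and 0.09 for Cdk1, Ccnb1, Plk1, Aurkb, Bub1, Top2a, Foxm1 and Mki67, with SE of 0.087 to 0.28 and adjusted p of 0.088 to 1. At 24 hours none of the 8 core members passed. They had log2 fold changes of 0.18, 0.28, 0.22, 0.17, 0.27, 0.10, 0.15 and 0.00 for Cdk1, Ccnb1, Plk1, Aurkb, Bub1, Top2a, Foxm1 and Mki67, with SE of 0.087 to 0.28 and adjusted p of 0.429 to 1. Bub1 had 311 and 297 CPM with RANKL plus I-BET, against 242 and 233 CPM with I-BET at 14 hours, and Kif20a had 141 and 132 CPM against 113 and 108 CPM. Both were separated without passing the test.

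The change of this difference between hours was tested after the data had been seen. Shares of the tested genes are again at an adjusted p under 0.05, and none was counted at an unadjusted p. For 14 against 4 hours 0 members were higher by edgeR, 22 at an unadjusted p under 0.05 and 0 by DESeq2, and 0 members were lower by edgeR, 0 at an unadjusted p under 0.05 and 0 by DESeq2, where 0% of the tested genes were called higher and 0.0187% lower, with a median difference over the members of 0.34. For 24 against 4 hours 0 members were higher by edgeR, 16 at an unadjusted p under 0.05 and 2 by DESeq2, and 0 members were lower by edgeR, 0 at an unadjusted p under 0.05 and 0 by DESeq2, where 0.00623% of the tested genes were called higher and 0.150% lower, with a median of 0.30. For 14 against 4 hours none of the 8 core members passed. The differences of log2 fold changes were 0.34, 0.29, 0.41, 0.41, 0.41, 0.40, 0.47 and 0.34 for Cdk1, Ccnb1, Plk1, Aurkb, Bub1, Top2a, Foxm1 and Mki67, with SE of 0.12 to 0.39 and adjusted p of 0.661 to 1. For 24 against 4 hours none of the 8 core members passed. These genes had differences of log2 fold changes of 0.22, 0.30, 0.35, 0.39, 0.32, 0.29, 0.44 and 0.25 for Cdk1, Ccnb1, Plk1, Aurkb, Bub1, Top2a, Foxm1 and Mki67, with SE of 0.12 to 0.39 and adjusted p of 0.678 to 1. With the block 5 were called higher and 0 lower, against 0.561% and 0.630% of the tested genes for 14 hours, and 6 were called higher and 0 lower, against 0.985% and 1.75% of the tested genes for 24 hours. The 24-hour change from 4 hours with RANKL alone exceeded that with I-BET alone for 7 members, Kif20a among them with a difference of 0.69, SE 0.12, adjusted p = 0.00229. These 7 stand where 3.75% of the tested genes were called higher and 6.79% lower, and 0 members were lower by edgeR, 0 at an unadjusted p under 0.05 and 0 by DESeq2.

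**Figure D4:**
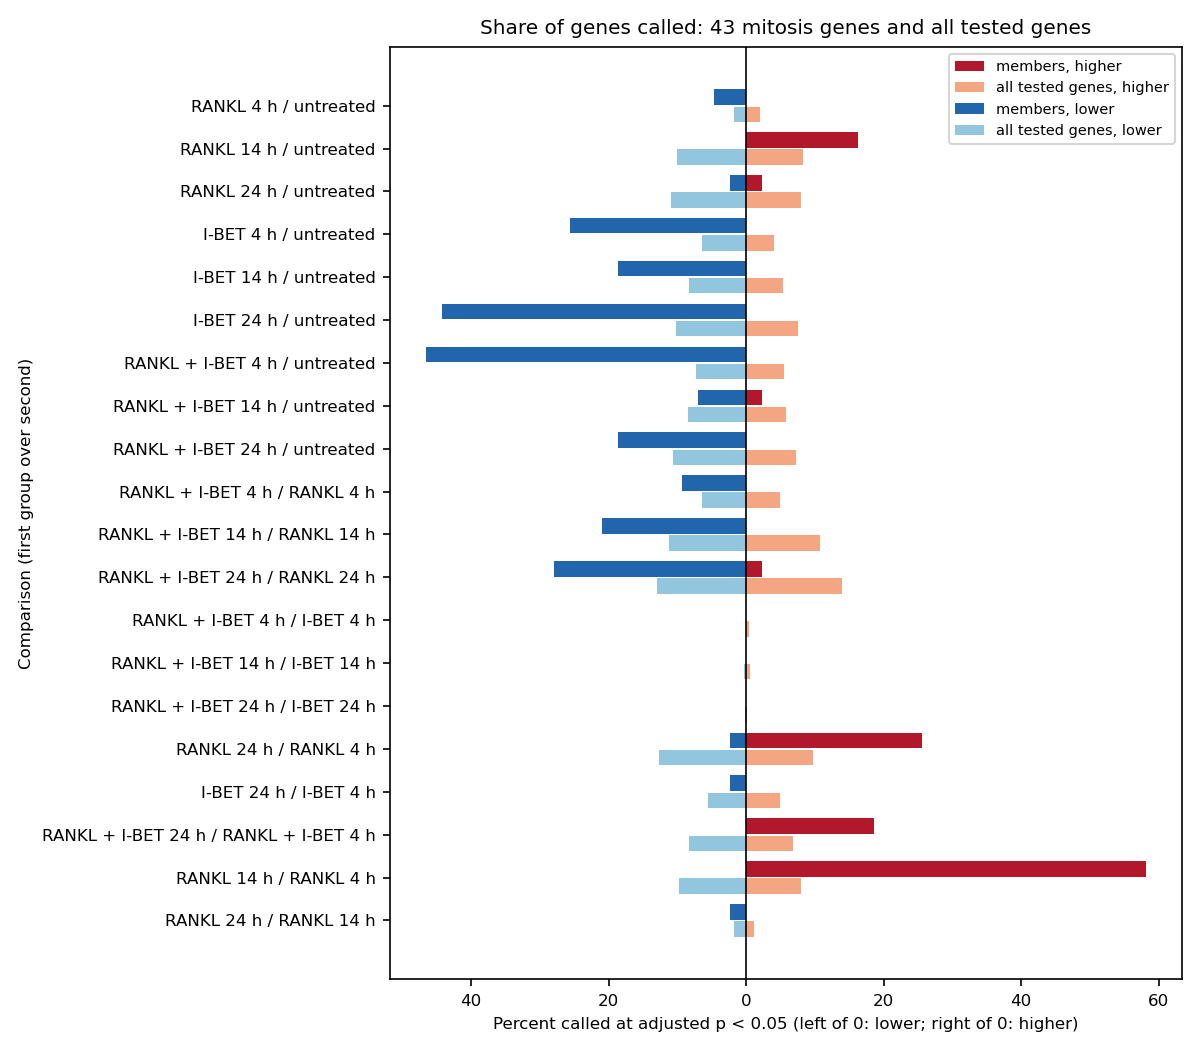
Share of the 43 mitosis genes called higher and lower at an adjusted p under 0.05 in each of 20 comparisons, in percent (lower to the left of 0, higher to the right), beside the share of all tested genes called in that direction. The share called lower exceeds that of all tested genes in several comparisons, among them I-BET at 24 hours and RANKL plus I-BET at 4 hours against untreated cells. The share called higher also does so in several, among them RANKL at 14 against 4 hours.

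Genes of mitosis outside the set were counted in the same fits. The lists held 8 condensin genes, 14 of cohesin, 17 of the anaphase promoting complex and 31 measured of 32 of the centromere and kinetochore. They also held 15 of checkpoint and mitotic entry and 35 of spindle and cytokinesis. The 17 include Fzr1, Ube2s and Fbxo5 beside subunits of the complex. Between 4 and 14 hours of RANKL 6 of 8 condensin genes rose, Ncapg (log2 fold change 0.65, SE 0.11, adjusted p = 0.00106) and Ncapd3 (log2 fold change 0.57, SE 0.16, adjusted p = 0.0236) the most, and 8 of 14 cohesin genes, with Smc3 at 0.61 and the acetyltransferase Esco2 at 0.58. Of the anaphase promoting complex list 2 of 17 rose, Anapc1 (log2 fold change 0.41, SE 0.12, adjusted p = 0.0295) and Cdc23 (log2 fold change 0.27, SE 0.085, adjusted p = 0.0397). In the kinetochore list 9 of 31 rose, led by Ska1 with 0.79, in the checkpoint list 8 of 15, led by Cks2 with 0.82, and in the spindle list 15 of 35, led by Haus8 with 0.54. None of these 6 lists had a fall there. The 8.02% of all tested genes called higher is the background to these counts.

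The same lists were counted for I-BET on top of RANKL at 14 hours, where 10.8% of the tested genes were called higher and 11.2% lower. Of 14 cohesin genes 1 rose and 1 fell. Here 1 of 8 condensin genes rose, Ncaph (log2 fold change 0.35, SE 0.094, adjusted p = 0.0154), and 0 fell. Of the 17 genes of the anaphase promoting complex list Cdc26 fell (log2 fold change -0.47, SE 0.13, adjusted p = 0.0201). In the checkpoint list the phosphatase Cdc25a (log2 fold change -0.68, SE 0.076, adjusted p = 2.37e-05), the remodeller Trip13 (log2 fold change -0.58, SE 0.1, adjusted p = 0.000803) and the CDK-binding protein Cks2 (log2 fold change -0.49, SE 0.093, adjusted p = 0.00167) fell, and Ensa, an inhibitor of the phosphatase PP2A-B55, rose (log2 fold change 0.55, SE 0.16, adjusted p = 0.0234). In the spindle list Depdc1a (log2 fold change -0.65, SE 0.14, adjusted p = 0.00319), Troap (log2 fold change -0.55, SE 0.1, adjusted p = 0.00139) and Tacc3 (log2 fold change -0.27, SE 0.088, adjusted p = 0.0414) fell and Depdc1b rose (log2 fold change 0.47, SE 0.15, adjusted p = 0.0389), 4 of 35. The kinetochore list had 1 rise, Cenph (log2 fold change 0.34, SE 0.11, adjusted p = 0.0353), and 2 falls, Cenpq (log2 fold change -0.45, SE 0.12, adjusted p = 0.0134) and Ska1 (log2 fold change -0.39, SE 0.11, adjusted p = 0.0191).

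The regulators of this transcription wave were counted in a list of 22 MuvB, B-MYB, E2F and pocket protein genes. Mybl2, which encodes B-MYB, was lower with RANKL plus I-BET than with RANKL at 14 hours (log2 fold change -0.87, SE 0.1, adjusted p = 3.7e-05) and at 24 hours (log2 fold change -0.92, SE 0.1, adjusted p = 1.53e-05), and so was the E2F partner Tfdp1 at 14 hours (log2 fold change -0.49, SE 0.074, adjusted p = 0.000317). The pocket protein genes Rb1 (log2 fold change 1.31, SE 0.23, adjusted p = 0.00105) and Rbl2 (log2 fold change 0.57, SE 0.097, adjusted p = 0.000723) were higher at 14 hours. Of the 22 genes, 2 rose and 4 fell at 14 hours, where 10.8% of the tested genes were called higher and 11.2% lower. Between 4 and 14 hours of RANKL Mybl2 (log2 fold change 1.10, SE 0.1, adjusted p = 8.89e-06) and E2f1 (log2 fold change 1.01, SE 0.16, adjusted p = 0.000559) rose and E2f2 fell (log2 fold change -0.64, SE 0.16, adjusted p = 0.0129). Foxm1, a member, did not pass in these comparisons.

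A list of 35 DNA replication genes, which serve the phase before mitosis, was counted for comparison. Between 4 and 14 hours of RANKL 26 rose and 0 fell, led by Mcm10 (log2 fold change 0.88, SE 0.078, adjusted p = 7.28e-06) and Uhrf1 (log2 fold change 0.86, SE 0.14, adjusted p = 0.000985). With both agents against RANKL alone at 14 hours 0 rose and 12 fell, Cdt1 (log2 fold change -0.77, SE 0.15, adjusted p = 0.00229) and Mcm10 (log2 fold change -0.73, SE 0.078, adjusted p = 1.56e-05) the most. At 4 hours of RANKL plus I-BET against untreated cells 0 rose and 23 fell, with Uhrf1 (log2 fold change -1.25, SE 0.14, adjusted p = 0.000101) and Cdt1 (log2 fold change -1.05, SE 0.15, adjusted p = 0.000643) lowest. The list's median log2 fold changes were 0.59, -0.24 and -0.59 in these 3 comparisons, beside 0.37, -0.14 and -0.36 for the 43 mitosis genes. Of all tested genes 8.02%, 10.8% and 5.55% were called higher and 9.71%, 11.2% and 7.24% lower in that order.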

How the data were processed

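Poly(A) RNA of 20 libraries was sequenced, per the labels' protocols. Per the submitters' processing notes, the authors used FastQC, STAR 2.5.3a and DESeq2 1.16.1, with builds GRCm38 and mm10. How reads were assigned to genes, with which annotation and on which strand, is not given in the sources used here. Members that overlap other genes are therefore uncertain. The authors deposited a table of raw counts and one of RPKM, each with 1 column per library. The deposited RPKM equal the counts over the library total and 1 fixed length per gene, so the tables are not independent.

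The counts were fitted here with edgeR 4.0.16 and limma 3.58.1 (R 4.3.3). Of 50686 genes 16042 passed filterByExpr by group, and TMM factors scaled the libraries. All 20 libraries entered 1 fit with a mean per group, which left 10 residual degrees of freedom. Robust quasi-likelihood F tests were adjusted by Benjamini-Hochberg over the tested genes of each comparison. The standard error (SE) is the size of the log2 fold change over the root of F. Of 25 comparisons 5 were added after the data had been seen. The fitting steps were tested on simulated data.

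Same-numbered libraries deviated together from their group means in 45 of 45 pairs of groups, with correlations of 0.221 to 0.596 and a median of 0.454. The numbers were therefore taken to pair the samples, and an alternative fit took the number as a block. Calls, SE and adjusted p are from the fit without the block unless another fit is named. It had 9 residual degrees of freedom and a biological coefficient of variation of 0.0751, where the unblocked fit had 0.162. Further alternatives scaled by RLE, dropped the filter, used DESeq2 1.42.0, fitted only the compared libraries, left out each library in turn or took medians from the RPKM.

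By rule the text names 8 core members and up to 6 further called members per direction in a comparison. Other called members are named with their log2 fold change alone. From the other lists up to 2 called genes per direction are named, and more where a list had 5 or fewer calls. Those, and Kif20a and Bub1 where they are given without a call, were chosen after their values were seen. The members and lists were chosen with earlier results of these data known. Figures were drawn with matplotlib 3.10.9 in Python 3.11.15.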

Additional observations from a re-analysis of the deposited data

Results flagged for a closer look

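The change between 4 and 24 hours differed between RANKL alone and I-BET alone for 7 mitosis genes, by a test of the difference of the log2 changes that was added after the data had been seen. In this comparison Kif20a, the central spindle motor, had 186 and 171 CPM at 24 hours and 152 and 146 CPM at 4 hours of RANKL. With I-BET it had 98.6 and 102 CPM at 24 hours and 142 and 128 CPM at 4 hours, so the RANKL libraries lay higher at the later hour and the I-BET libraries lower. The difference was 0.69, SE 0.12, adjusted p = 0.00229, and it held in every fit that left out 1 library. For Kif2c the difference was 0.63, SE 0.13, adjusted p = 0.00694, which also held in each of those fits. The other 5 were Nek2 (0.57, SE 0.15, adjusted p = 0.0228), Bub1 (0.48, SE 0.12, adjusted p = 0.0233), Aurka (0.57, SE 0.16, adjusted p = 0.0371), Ccnb1 (0.45, SE 0.12, adjusted p = 0.0313) and Espl1, which encodes separase (0.42, SE 0.13, adjusted p = 0.0471). Cdk1, Plk1, Aurkb, Top2a, Foxm1 and Mki67 did not pass. Their differences of log2 fold changes were 0.17, 0.28, 0.29, 0.01, 0.23 and 0.20 in that order, with SE of 0.14 to 0.39 and adjusted p of 0.395 to 0.996. Calls numbered 2 and 2 without RANKL libraries 1 and 2 of 4 hours, 2 and 5 without I-BET libraries 1 and 2 of 4 hours, 4 and 2 without RANKL libraries 1 and 2 of 24 hours, and 2 and 8 without I-BET libraries 1 and 2 of 24 hours. For Ccnb1 the adjusted p was 0.152 without I-BET library 1 of 24 hours, 0.146 without I-BET library 1 of 4 hours, 0.0633 without RANKL library 1 of 24 hours, 0.0988 without RANKL library 2 of 24 hours, 0.0813 without RANKL library 1 of 4 hours and 0.113 without RANKL library 2 of 4 hours. Bub1 had an adjusted p of 0.0734 without I-BET library 1 of 24 hours, 0.0731 without I-BET library 2 of 24 hours, 0.113 without I-BET library 1 of 4 hours, 0.0767 without RANKL library 2 of 24 hours, 0.0582 without RANKL library 1 of 4 hours and 0.106 without RANKL library 2 of 4 hours. With the replicate block 23 were called higher and 0 lower, against 11.9% and 14.2% of the tested genes. The hours in culture were equal in both arms, and the growth of the cultures was not measured here.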

How the results depend on the processing

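The counts here are of members called in either direction, of 43, where they moved by more than 1.5 times. With the library number as a replicate block the counts that moved were 20, 16 and 10 for RANKL against untreated cells at 4, 14 and 24 hours, 28, 21 and 34 for I-BET against untreated cells at 4, 14 and 24 hours and 37, 8 and 25 for RANKL plus I-BET against untreated cells at 4, 14 and 24 hours. The block also gave 16 and 18 for RANKL plus I-BET against RANKL at 4 and 14 hours, 2, 14 and 2 for RANKL plus I-BET against I-BET at 4, 14 and 24 hours and 20 for RANKL at 24 over 4 hours. The block also gave 17 for I-BET at 24 over 4 hours, 21 for RANKL plus I-BET at 24 over 4 hours and 38 for RANKL at 14 over 4 hours. The block also gave 10 for RANKL at 24 over 14 hours, 4 for the I-BET effect in RANKL cells at 14 over 4 hours and 3 for the I-BET effect in RANKL cells at 24 over 4 hours. The block also gave 5 for the RANKL effect in I-BET cells at 14 over 4 hours, 6 for the RANKL effect in I-BET cells at 24 over 4 hours and 23 for RANKL less I-BET at 24 over 4 hours. Without the filter on low counts the counts that moved were 0, 4 and 1 for RANKL against untreated cells at 4, 14 and 24 hours, 6 and 5 for I-BET against untreated cells at 4 and 14 hours and 4 for RANKL plus I-BET against untreated cells at 24 hours. No filter also gave 2 and 8 for RANKL plus I-BET against RANKL at 4 and 24 hours, 3 for RANKL at 24 over 4 hours and 2 for RANKL less I-BET at 24 over 4 hours. With only the libraries compared in the fit the counts that moved were 0, 1 and 0 for RANKL against untreated cells at 4, 14 and 24 hours, 1, 2 and 9 for I-BET against untreated cells at 4, 14 and 24 hours and 1 for RANKL plus I-BET against untreated cells at 4 hours. The smaller fits also gave 0 and 5 for RANKL plus I-BET against RANKL at 4 and 14 hours, 3 for RANKL at 24 over 4 hours and 0 for I-BET at 24 over 4 hours. The smaller fits also gave 1 for RANKL plus I-BET at 24 over 4 hours, 3 for RANKL at 14 over 4 hours and 0 for RANKL at 24 over 14 hours. The smaller fits also gave 1 for RANKL less I-BET at 24 over 4 hours. With DESeq2 the counts that moved were 8 and 4 for RANKL against untreated cells at 4 and 24 hours, 5 for RANKL plus I-BET against I-BET at 14 hours and 5 for I-BET at 24 over 4 hours. DESeq2 also gave 2 for RANKL at 24 over 14 hours and 2 for the RANKL effect in I-BET cells at 24 over 4 hours. With 1 library left out the counts ran over 0, 1 to 5 and 0 to 1 for RANKL against untreated cells at 4, 14 and 24 hours, 0 to 6, 4 to 5 and 9 to 18 for I-BET against untreated cells at 4, 14 and 24 hours and 6 to 20, 2 to 3 and 2 to 3 for RANKL plus I-BET against untreated cells at 4, 14 and 24 hours. They ran over 0 to 2, 5 to 7 and 5 to 9 for RANKL plus I-BET against RANKL at 4, 14 and 24 hours, 3 to 7 for RANKL at 24 over 4 hours and 0 to 2 for I-BET at 24 over 4 hours. They ran over 3 to 9 for RANKL plus I-BET at 24 over 4 hours, 10 to 14 for RANKL at 14 over 4 hours and 0 to 1 for RANKL at 24 over 14 hours. They ran over 2 to 8 for RANKL less I-BET at 24 over 4 hours. The median log2 ratio of the members over untreated cells was computed on the deposited RPKM, which carry no TMM scaling, against that on CPM. It was -0.17 against -0.23 for RANKL at 4 hours, -0.13 against -0.28 for I-BET at 4 hours and -0.28 against -0.36 for RANKL plus I-BET at 4 hours. It was further 0.13 against 0.13 for RANKL at 14 hours, -0.12 against -0.21 for I-BET at 14 hours and 0.07 against 0.02 for RANKL plus I-BET at 14 hours. The 24-hour medians are not given here. At 24 hours the members' summed RPKM were 1803 and 1701 with RANKL, 1353 and 1409 with I-BET and 1541 and 1580 with RANKL plus I-BET. In untreated cells these sums were 1874 and 1550. RLE size factors moved none of the counts by more than 1.5 times. No called value of a named gene changed sign in these fits, while 47 of 163 uncalled values of core members did in at least 1. Of 119 named calls 78 ended without some single library, 82 with only the compared libraries, 45 without the filter, 5 with RLE size factors, 0 with DESeq2 and 0 with the block. A group with 1 library left out is assumed to vary like the others. With 2 libraries per group and 10 residual degrees of freedom, small changes can be missed, and the cause of the moves was not tested.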
